A study of Danio rerio with 27 samples.

Results

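The comparison described here asked which genes of zebrafish larvae responded differently to knockout of the bile acid receptor TGR5 when the larvae carried liver tumours than when they did not. It used 18 of the 27 libraries of the study, each made from a pool of whole larvae collected 21 days after fertilisation and sequenced from the 3′ ends of polyadenylated transcripts. The 18 libraries fell into 4 groups by sample title and genotype. WT SLC45a2-KO (4 libraries) and WT TGR5-KO (4) were wild-type larvae, and PY SLC45a2-KO (5) and PY TGR5-KO (5) were tumour-burdened larvae with wasting. PY fish carry more than 1 engineered change, among them constitutive liver overexpression of YAP, a coactivator of transcription that promotes growth. All 4 groups, the controls included, had been injected as embryos with CRISPR/Cas9 complexes against slc45a2, a transporter gene used as a pigmentation marker. The TGR5-KO groups had guides against the TGR5 gene as well. The injected larvae are not a bred line, so cells with and without an edit may be mixed within a larva, and the number of larvae per pool is not stated in the labels. The interaction is the log2 change with TGR5-KO in PY (PY TGR5-KO minus PY SLC45a2-KO) minus the change in WT (WT TGR5-KO minus WT SLC45a2-KO). It is positive for a gene that responded more upward, or less downward, in PY than in WT. The other libraries, titled WT CYP7a1-KO (4) and PY CYP7a1-KO (5), were pools of the same age and were used for comparison. The spread behind the edgeR p-values was estimated from all 27 libraries.

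TGR5, encoded by gpbar1, is a membrane receptor that bile acids activate and that couples to a stimulatory G protein. Its activation raises cyclic AMP, which through protein kinase A and CREB induces immediate early and metabolic genes. In mammals the receptor is known from bile duct and gallbladder epithelium, intestinal endocrine cells, macrophages, brown fat and muscle, while hepatocytes sense bile acids mainly through the nuclear receptor FXR. Bile acids themselves are made from cholesterol in the liver, where Cyp7a1 catalyses the rate-limiting step of the classical pathway, and they serve in the intestine to take up fat and fat-soluble vitamins.

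Total counts were 3757144 to 5260083 per library, and 18854 to 20584 genes per library had at least 1 count. Levels are given as CPM, counts per 1e+06 counts of a library, scaled by TMM factors, and a count of 0 allows up to 3 counts, or 0.57 to 0.798 CPM (counting error only). Of the genes, 15521 passed the filter on low counts and were tested with edgeR, and "called" means an adjusted p under 0.05 by Benjamini-Hochberg over all of them. The labels do not say whether pools came from separate clutches or tanks, so p-values measure the spread between these pools. Pools of 1 group were less alike in PY (Pearson's r between their log2 CPM 0.924 to 0.951) than in WT (0.952 to 0.96). The most abundant entry, which has no gene name, took 29.6 to 35.7% of counts in PY SLC45a2-KO, 26 to 29.8% in PY TGR5-KO, 24.8 to 29.2% in WT SLC45a2-KO and 23.7 to 27.6% in WT TGR5-KO. Its own interaction was 0.05 (edgeR adjusted p = 0.906), and with genes of over 1% of counts left out of the scaling 1043 interactions were called against 1041. List counts of 3 or fewer often moved by more than 1.5 times when a single library was left out, and libraries that did so are named for larger counts. All list counts are to be read against the shares called over all tested genes. These were 6.71% in the interaction, 11.3% for the change with TGR5-KO in PY and 6.49% for that in WT. In RNA of whole larvae, fewer cells of a type and less RNA per cell cannot be told apart.

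The targeted genes were near the limit of detection. The TGR5 transcript gpbar1 had 40 counts over the 18 libraries, with 8 libraries at 0. Its level was 0.895, 0, 0 and 0.756 CPM in WT SLC45a2-KO and 0.87, 0.231, 0.204 and 0 CPM in WT TGR5-KO. It was 1.16, 0, 0.995, 0 and 0.848 CPM in PY SLC45a2-KO and 1.07, 0, 0, 0 and 1.94 CPM in PY TGR5-KO. The groups overlapped in both backgrounds, and the exact permutation test of the interaction over 17640 label swaps within backgrounds (two-sided) gave p = 0.936. The marker gene slc45a2 had 14 counts (exact permutation p = 0.122, adjusted p = 0.184 over 3 genes). The yap1 transcript had 83 counts, with 7 libraries at 0. Its level was 2.31, 2.05, 1.74, 8.01 and 1.06 CPM in PY SLC45a2-KO and 0.427, 0.677, 1.01, 2.37 and 0 CPM in PY TGR5-KO (exact permutation p for the interaction = 0.105, adjusted p = 0.184). The PY groups overlapped in yap1, and PY SLC45a2-KO library 4 stood above all other pools. A 3′ tag is read at the end of the transcript, not at the edited site, so these counts check nothing about the knockout itself.

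The change with TGR5-KO depended on the background. The interaction was called for 1041 of 15521 genes (6.71%), 612 positive (3.94%) and 429 negative (2.76%), and 3090 genes had an unadjusted p under 0.05. With TGR5-KO, 1761 genes (11.3%) were called in PY, 983 higher (6.33%) and 778 lower (5.01%). In WT the change was called for 1008 genes (6.49%), 481 higher (3.1%) and 527 lower (3.4%). Of the 612 positive interactions, 315 genes (51.5%) rose in PY without a call in WT, and 182 (29.7%) fell in WT without a call in PY. Another 37 (6.05%) rose in PY and fell in WT, 73 (11.9%) were called in neither background alone, 4 fell in both, and 1 rose in both. Of the 429 negative interactions, 192 genes (44.8%) fell in PY without a call in WT, 138 (32.2%) rose in WT without a call in PY, and 27 (6.29%) fell in PY and rose in WT. A further 71 (16.6%) were called in neither background, and 1 fell in both. Thus most interactions rested on a called change in 1 background, and 64 of the 1041 on called changes in opposite directions.

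The background gap, the difference between PY and WT in log2 level, was compared with and without TGR5-KO. Among the called genes it was narrower with TGR5-KO for 818 of 1041 (78.6%), against 9632 of all 15521 tested (62.1%). The median size of the gap in the called genes was 1.17 with SLC45a2-KO alone and 0.497 with TGR5-KO, and over all tested genes it was 0.49 and 0.372. The gap narrowed for 382 of the 429 negative interactions (89%) and for 436 of the 612 positive ones (71.2%). The interaction is itself the change in this gap in the same libraries, so these shares describe the called genes and test nothing. For 842 of the 1041 (80.9%) the mean of PY TGR5-KO lay between those of PY SLC45a2-KO and WT SLC45a2-KO, against 8699 of all 15521 tested (56%). This share too comes from the libraries that gave the calls and tests nothing.

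**Figure D1:**
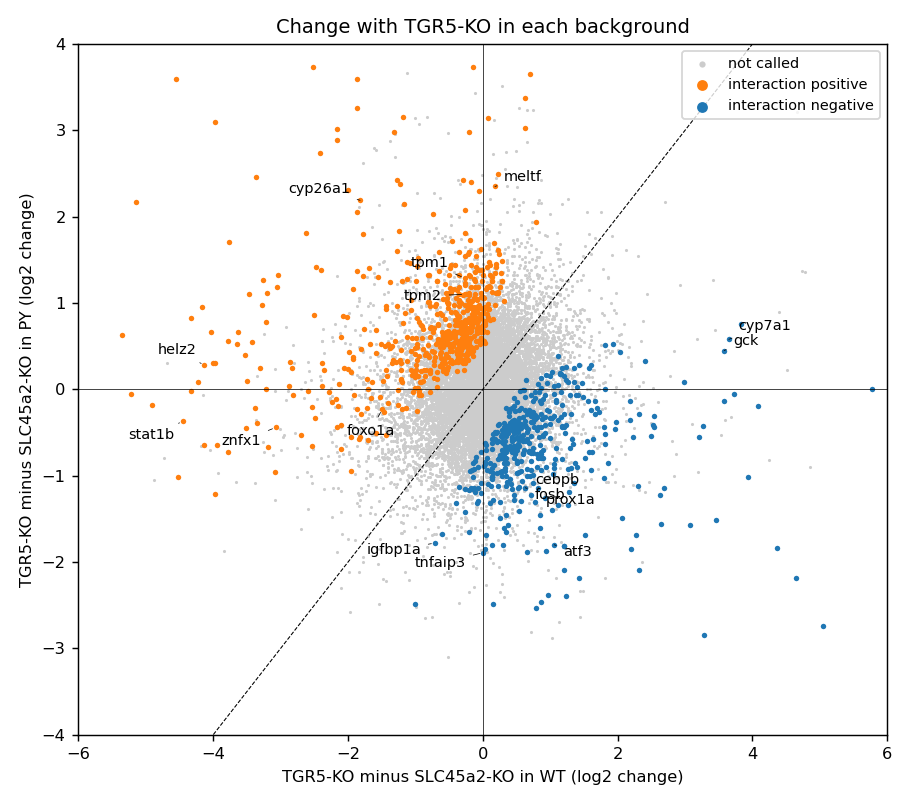
Each point is 1 of 15487 tested genes, placed by its fitted log2 change with TGR5-KO in WT (horizontal axis) and in PY (vertical axis); 34 genes, 20 of them called, lie outside the axes. Orange and blue points are genes with a called positive or negative interaction, the dashed line marks equal change in both backgrounds, and the called genes lie away from that line, with tpm1 and meltf changed in PY and foxo1a and znfx1 in WT.

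Skeletal muscle genes rose in PY and not in WT. Of 102 tested genes for contractile and structural muscle proteins, 47 had a positive interaction and 0 a negative one, with a median interaction of 0.77 against 0.04 over all tested genes. In PY 49 of the 102 rose with TGR5-KO and 0 fell (median 0.52), and in WT 14 fell and 0 rose (median -0.18). The WT count rested on a few pools: it was 5 without WT SLC45a2-KO library 1, 8 without WT TGR5-KO library 1 and 7 without WT TGR5-KO library 3. The summed level of the list was 67194 to 88760 CPM in PY SLC45a2-KO and 95304 to 128596 CPM in PY TGR5-KO, without overlap. PY CYP7a1-KO also stood above PY SLC45a2-KO, at 97846 to 135735 CPM.

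Tropomyosins, which lie along the actin filament and control its access to myosin, had the smallest adjusted p of this group. The level of tpm1 was 182.1, 121.2, 141.6, 148.6 and 160.5 CPM in PY SLC45a2-KO and 371.2, 335.1, 383.2, 383.1 and 373.8 CPM in PY TGR5-KO. Its WT level was 472.5, 377.3, 471.6 and 449.01 CPM with SLC45a2-KO and 399.8, 295.9, 342.7 and 429.8 CPM with TGR5-KO. All 5 PY TGR5-KO pools stood above all 5 PY SLC45a2-KO pools, and the WT groups overlapped. PY CYP7a1-KO was also above PY SLC45a2-KO for tpm1, at 263.3 to 433.7 CPM. Groups without overlap were common at these sample sizes, at 1244 of all tested genes (8.01%) in PY and 2358 (15.2%) in WT. The change of tpm1 was 1.29 ± 0.13 (SE) in PY and -0.27 ± 0.14 in WT, an interaction of 1.56 ± 0.20 (edgeR adjusted p = 3.73e-07). The other tropomyosin gene named here, tpm2, had means of 283.8 ± 39.6 CPM (SD, n = 5) and 610.2 ± 38.6 (n = 5) in PY and of 908.5 ± 94 (n = 4) and 759.2 ± 29.6 (n = 4) in WT, control first (interaction 1.36 ± 0.17, adjusted p = 7.03e-07).

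The kelch protein gene klhl41b, whose product stabilises the thin filament, rose in PY from 17.3, 21.1, 21.9, 29.3 and 24 CPM to 51, 42.2, 45.2, 48.4 and 48 CPM. The WT level was 82.8, 76.2, 62.7 and 76.7 CPM with SLC45a2-KO and 43.3, 36.4, 50.7 and 67.1 CPM with TGR5-KO. The PY groups did not overlap, and in WT 1 TGR5-KO pool reached into the control range. Its interaction was 1.64 ± 0.23 (adjusted p = 4.27e-06). Its WT change of -0.59 ± 0.17 (adjusted p = 0.0226) lost its call without WT SLC45a2-KO library 1, 2 or 4 or WT TGR5-KO library 1 or 2 (adjusted p up to 0.113). The gene neb, for the giant thin filament protein nebulin, had 0, 0, 0.249, 0 and 0 CPM in PY SLC45a2-KO, 1 count in all, and 56.4, 31.4, 15.6, 5.26 and 18.7 CPM in PY TGR5-KO. In WT neb was at 31.7 to 42.1 CPM with SLC45a2-KO and 20.4 to 44.2 CPM with TGR5-KO. Among these 4 groups PY SLC45a2-KO alone was near 0, and the fitted interaction of 8.50 ± 1.20 (adjusted p = 0.000101) depends on that single count. PY CYP7a1-KO was at 5.32 to 31.2 CPM for neb, so the PY control stood apart from both other PY groups.

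Lens and photoreceptor genes also rose in PY and had positive interactions. Of 46 tested genes for lens crystallins and lens fibre proteins, 25 had a positive interaction and 0 a negative one (median 1.02). In PY 26 of them rose and 0 fell, and in WT 3 fell and 0 rose, a count of 1 without WT TGR5-KO library 1 or 2. Their summed level was 2625 to 3288 CPM in PY SLC45a2-KO, 4276 to 5886 in PY TGR5-KO and 3933 to 6800 in PY CYP7a1-KO. Crystallins are the structural proteins that make the lens transparent, and they form families of near-identical copies, so counts of single members are uncertain. The level of crybb1l1, a beta crystallin gene, was 84.3, 94.3, 102.99, 102.2 and 89.7 CPM in PY SLC45a2-KO and 168.1, 158.97, 169.1, 190.1 and 195.97 CPM in PY TGR5-KO. In WT it was 363.6, 309.003, 345.3 and 352.6 CPM with SLC45a2-KO and 233.7, 216.6, 324.8 and 338.1 CPM with TGR5-KO. The PY groups did not overlap and the WT groups did, and the interaction was 1.20 ± 0.20 (adjusted p = 5.33e-05). The related crybb1l2 rose in PY by 0.54 ± 0.13 (adjusted p = 0.00276) and fell in WT by 0.62 ± 0.14 (adjusted p = 0.00295), an interaction of 1.16 ± 0.19 (adjusted p = 4.72e-05). The gamma crystallin gene crygm2e rose in PY by 1.33 ± 0.22 (adjusted p = 3.98e-05), and its interaction was 2.12 ± 0.32 (adjusted p = 1.29e-05). Another gamma crystallin gene, crygm2d1, had 0 counts in all 5 PY SLC45a2-KO pools and 31.4, 12.4, 11.1, 2.1 and 21.1 CPM in PY TGR5-KO, at least 115.1-fold higher, taking 3 counts over the control group as the floor. In WT crygm2d1 stood at 13 to 52.3 CPM with SLC45a2-KO and 24.8 to 42.2 CPM with TGR5-KO, and its interaction call was lost in a fit with a spread per group (adjusted p = 0.073). PY CYP7a1-KO was at 5.45 to 38.7 CPM, so for crygm2d1 the PY control stood apart from both other PY groups.

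Of 48 tested photoreceptor and phototransduction genes, 19 had a positive interaction and 0 a negative one (median 0.95). In PY 16 rose, and in WT 6 fell, a count of 3 without WT SLC45a2-KO library 4 or WT TGR5-KO library 1 or 2. The summed photoreceptor level was 1117 to 1475 CPM in PY SLC45a2-KO, 1843 to 2282 in PY TGR5-KO and 1918 to 2248 in PY CYP7a1-KO. The gene pde6h encodes the inhibitory subunit of cone phosphodiesterase, which breaks down cyclic GMP in the light response. Its level was 118.99, 111.1, 175.9, 98.6 and 155.2 CPM in PY SLC45a2-KO and 207.6, 222.9, 205.5, 177.2 and 267.5 CPM in PY TGR5-KO. Its WT level was 546.8, 520.4, 423.3 and 502.5 CPM with SLC45a2-KO and 322.6, 238.2, 349.2 and 249.4 CPM with TGR5-KO. The groups did not overlap in either background, and they moved in opposite directions, by 0.71 ± 0.14 in PY (adjusted p = 0.000242) and -0.78 ± 0.15 in WT (adjusted p = 0.000435). The interaction was 1.49 ± 0.20 (adjusted p = 2.41e-06). The related pde6ha had an interaction of 1.50 ± 0.25 (adjusted p = 4.6e-05), and rcvrn3, for the calcium sensor recoverin, 1.65 ± 0.29 (adjusted p = 0.000151).

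**Figure D2:**
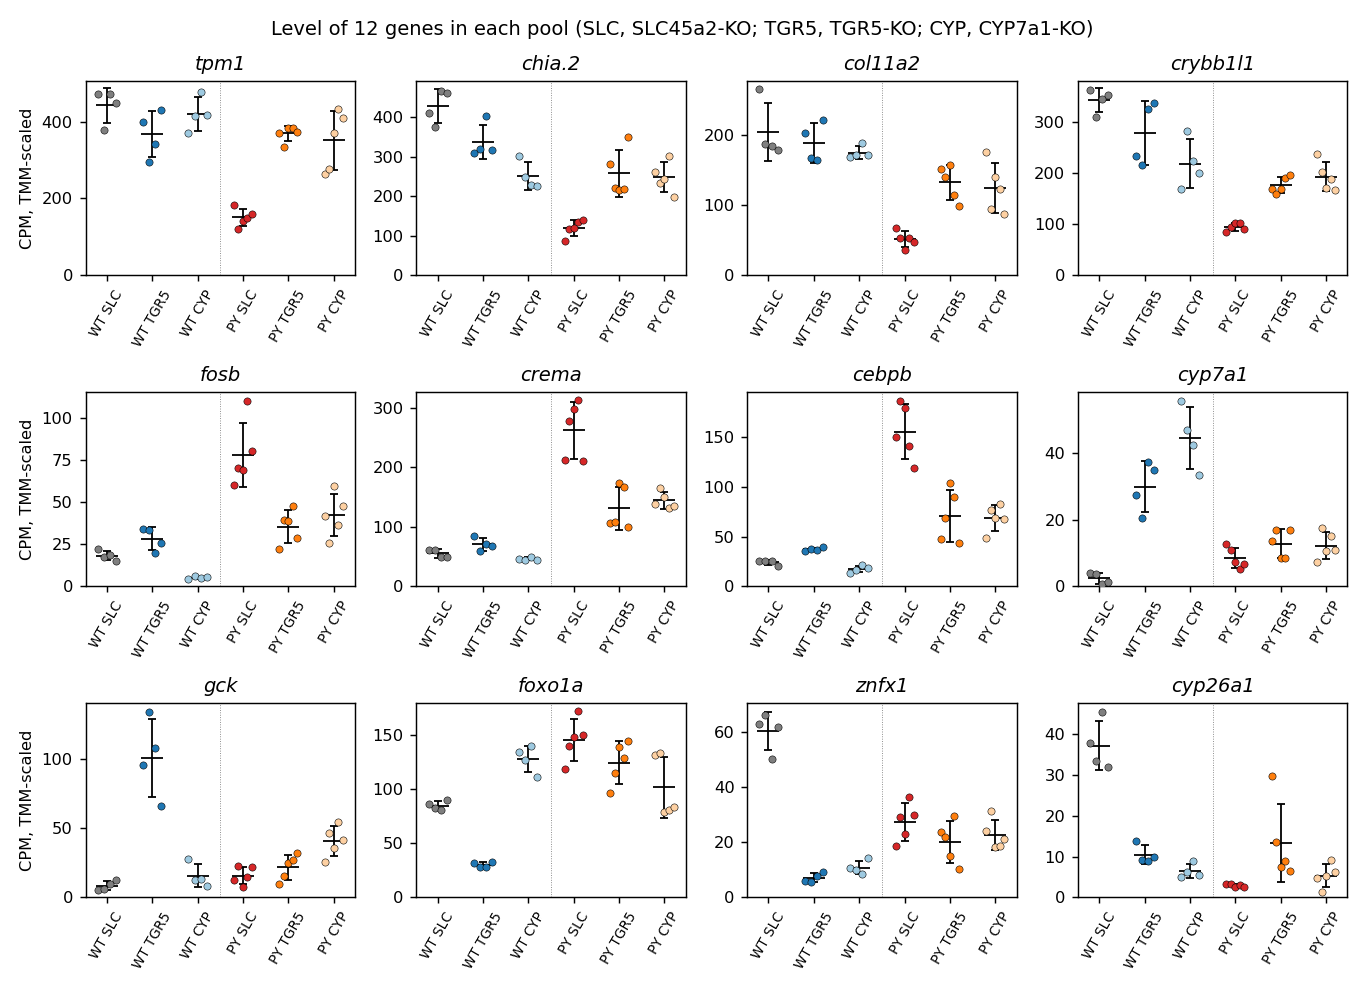
Each point is the level of a gene in 1 pool, in CPM scaled by TMM factors, with the mean and SD of each group as bars and the dotted line between WT and PY; CYP7a1-KO pools are drawn for comparison. For tpm1, chia.2, col11a2 and crybb1l1 the 5 PY TGR5-KO pools lie above the 5 PY SLC45a2-KO pools, as do the PY CYP7a1-KO pools. In WT, gck and foxo1a part the TGR5-KO pools from both other groups.

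Bone and cartilage genes had 12 positive interactions and 1 negative among 46 tested (median 0.59). In PY 20 of them rose and 3 fell, and in WT 1 rose and 0 fell. Summed, they were at 2318 to 3667 CPM in PY SLC45a2-KO, 4696 to 6638 in PY TGR5-KO and 4302 to 5531 in PY CYP7a1-KO. The cartilage collagen gene col11a2 was at 67.9, 53.1, 36.6, 53 and 47.9 CPM in PY SLC45a2-KO and 152.1, 139.8, 157.001, 114.6 and 99.4 CPM in PY TGR5-KO. The WT level was 265.8, 187.03, 184.7 and 178.6 CPM with SLC45a2-KO and 203.04, 166.7, 164.01 and 221.99 CPM with TGR5-KO. The PY groups were apart and the WT groups overlapped (interaction 1.47 ± 0.24, adjusted p = 5.33e-05). The gene col9a3, for a collagen that decorates cartilage fibrils, had an interaction of 1.82 ± 0.36 (adjusted p = 0.000617). The 1 negative gene was sox9b, a transcription factor gene of cartilage that is also active in biliary and progenitor cells of the liver and is counted among the known YAP targets. It fell in PY from 66.1, 64.8, 78.1, 54.1 and 68.7 CPM to 31.8, 29.6, 50, 37.3 and 35.2 CPM, without overlap, and its interaction was -1.36 ± 0.25 (adjusted p = 0.0003). Of 32 tested YAP targets, 3 had a negative and 1 a positive interaction (12.5% called, against 6.71% over all tested genes).

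Markers of the intestine, where bile acids act on digestion, included genes that rose in PY. Of 50 tested intestinal epithelium markers, 12 had a positive interaction and 1 a negative one (median 0.53), and 17 rose in PY while 2 rose and 2 fell in WT. Summed, these markers were at 4088 to 4940 CPM in PY SLC45a2-KO, 6154 to 7766 in PY TGR5-KO and 5255 to 7710 in PY CYP7a1-KO. The gene meltf, for the iron-binding protein melanotransferrin, had the widest gap of those named here. It was at 17.6, 16.8, 9.2, 13 and 12.3 CPM in PY SLC45a2-KO, 78.6, 86.7, 39.6, 51 and 96 CPM in PY TGR5-KO, and 304.1 to 465.3 CPM in all 8 WT pools. It rose in PY by 2.35 ± 0.20 (adjusted p = 4.4e-10), not to the WT range, and the interaction was 2.16 ± 0.28 (adjusted p = 2.66e-06). The chitinase gene chia.2, of a family with near-identical copies, rose from 86.4, 117.7, 120.2, 134.8 and 139.05 CPM to 281.5, 221.1, 216.3, 217.5 and 350.7 CPM in PY. It was 375.98 to 466.9 CPM in WT SLC45a2-KO and 309.8 to 401.4 CPM in WT TGR5-KO, which overlapped (interaction 1.45 ± 0.21, adjusted p = 4.27e-06). The brush border peptidase gene anpepb fell in WT from 325.7, 303.9, 239.1 and 297.1 CPM to 114.1, 82.8, 148.3 and 128.3 CPM, and its interaction was 1.86 ± 0.28 (adjusted p = 4.44e-05). WT CYP7a1-KO was also below the WT control for anpepb, at 59.3 to 139.03 CPM.

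Among 20 exocrine pancreas enzymes, 2 rose in PY and 0 fell (1 to 5 rose when 1 PY library was left out), 2 fell in WT, and 3 had a positive interaction and 0 a negative one. The interaction count was 7 without PY SLC45a2-KO library 3 or WT TGR5-KO library 2 and 1 without WT SLC45a2-KO library 2 or WT TGR5-KO library 4. The lipase gene cel.1, whose product needs bile salts for its activity, was at 148.6 to 240.6 CPM in PY SLC45a2-KO and 244.6 to 289.7 CPM in PY TGR5-KO. In WT it was 622.9 to 729.5 CPM with SLC45a2-KO and 346.6 to 584.9 CPM with TGR5-KO. The interaction of cel.1 was 0.90 ± 0.20 (adjusted p = 0.00173), and its change of 0.37 ± 0.13 in PY did not pass (adjusted p = 0.0544).

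Of 71 nuclear-encoded subunits of oxidative phosphorylation, 9 had a positive interaction and 0 a negative one (median 0.41). This count was 5 without WT SLC45a2-KO library 1, 3 without library 3 of that group and 4 without WT TGR5-KO library 4. With the mean of WT SLC45a2-KO and WT CYP7a1-KO as the WT control, an alternative added after the data were seen and called the changed WT control from here on, it was 3. That alternative brings a second knockout into the WT control only, while the PY control stays PY SLC45a2-KO. Its results therefore also carry any difference between WT CYP7a1-KO and WT SLC45a2-KO. In PY 26 of the 71 rose (15 without PY SLC45a2-KO library 4), and in WT 0 were called. The ATP synthase gene atp5mc3b was at 443.1 to 628.7 CPM in PY SLC45a2-KO and 798.8 to 1051 CPM in PY TGR5-KO, without overlap, and its interaction was 0.89 ± 0.19 (adjusted p = 0.00169). Of 29 melanin and pigment cell genes, in larvae that all received slc45a2 guides, 4 had a positive interaction. The count was 2 without PY SLC45a2-KO library 4, PY TGR5-KO library 2 or 5 or WT TGR5-KO library 1 or 4. The melanin enzyme gene tyrp1a rose in PY from 12.5, 5.54, 7.21, 7.46 and 10.2 CPM to 20.7, 24.8, 25, 19.7 and 29.6 CPM, against 23.7 to 33.3 CPM in WT (interaction 1.38 ± 0.29, adjusted p = 0.00117). The related tyrp1b had an interaction of 1.08 ± 0.23 (adjusted p = 0.00118).

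Inflammatory genes went the other way, falling in PY where they had been high. Of 51 tested acute phase and inflammation genes, 14 had a negative interaction and 1 a positive one (median -0.95). In PY 31 of the 51 fell with TGR5-KO and 0 rose (median -0.83), and in WT 2 fell (median -0.13). With the changed WT control 29 of the 51 had a negative interaction. The summed level of the 51 was 10277 to 13836 CPM in PY SLC45a2-KO, 5137 to 8577 CPM in PY TGR5-KO and 2136 to 3196 CPM in the 8 WT pools of these groups. It was lower in WT CYP7a1-KO, at 1491 to 1711 CPM, and that group enters the changed WT control. The liver transcription factor gene cebpb, which drives acute phase genes, was at 150.4, 186.6, 179.6, 140.9 and 119.3 CPM in PY SLC45a2-KO and 47.4, 69.1, 103.5, 89.4 and 43.2 CPM in PY TGR5-KO. Its WT level was 25.5, 25.3, 25.6 and 20.2 CPM with SLC45a2-KO and 35.2, 37.8, 36.3 and 39.2 CPM with TGR5-KO. Neither background showed overlap, and the groups moved down in PY and up in WT, where the change of 0.62 ± 0.20 did not pass (adjusted p = 0.0543). The interaction was -1.76 ± 0.27 (adjusted p = 1.5e-05).

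The gene tnfaip3, whose product A20 ends NF-kappaB signalling, fell in PY from 62.1, 114.6, 74.9, 78.5 and 44.7 CPM to 19.6, 19, 22.5, 20.8 and 19.2 CPM. It was at 7.94 to 15.6 CPM in WT SLC45a2-KO and 9.78 to 11.7 CPM in WT TGR5-KO. The PY groups were apart, the WT groups overlapped, and the interaction was -1.90 ± 0.33 (adjusted p = 0.000114). PY CYP7a1-KO was also below the PY control for tnfaip3, at 13.8 to 35.3 CPM. The complement gene c3a.3, of a family whose copies may share reads, fell in PY from 799.96 to 1048 CPM to 371.2 to 599.7 CPM (interaction -1.22 ± 0.20, adjusted p = 5.33e-05). The actin-binding leukocyte gene lsp1 fell in PY from 339.9, 445.3, 405.3, 338.97 and 348.5 CPM to 167.5, 148.1, 144.1, 244.8 and 99.9 CPM, against 18 to 37 CPM in the WT pools (interaction -1.69 ± 0.25, adjusted p = 8.97e-06). The summed neutrophil markers overlapped between the PY groups, at 998.1 to 1435 CPM and 1003 to 1277 CPM, and those of macrophages too, at 1078 to 1307 CPM and 1263 to 1452 CPM. Of 21 neutrophil markers 7 fell in PY and 1 rose (median -0.58), 4 falling without PY TGR5-KO library 1, and 2 had a negative interaction and 0 a positive one (median -0.76). Of 24 macrophage markers 1 rose and 1 fell in PY, and 1 had a positive interaction (4.17%, below the 6.71% over all tested genes). The part of these cells in the inflammatory genes was not tested.

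Immediate early genes, which answer cyclic AMP and growth signals within minutes, fell with the inflammatory genes. Of 27 tested, 8 had a negative interaction and 0 a positive one (median -0.87), 14 fell in PY and 0 rose, and in WT 2 rose and 1 fell. Their summed level was 1607 to 1828 CPM in PY SLC45a2-KO, 867.1 to 1146 CPM in PY TGR5-KO, 560.2 to 603.2 CPM in WT SLC45a2-KO and 596.5 to 632.8 CPM in WT TGR5-KO. PY CYP7a1-KO, at 988.4 to 1152 CPM, overlapped PY TGR5-KO, and WT CYP7a1-KO was at 429.3 to 505.3 CPM. The gene atf3 was at 92.6, 157.7, 91.8, 77.6 and 48.1 CPM in PY SLC45a2-KO and 18.4, 29.6, 37.6, 30.8 and 18.7 CPM in PY TGR5-KO. The WT level was 21.5, 25.9, 9.38 and 23.8 CPM with SLC45a2-KO and 52.2, 43.4, 35.2 and 37 CPM with TGR5-KO. The groups were apart in both backgrounds and in opposite directions, -1.80 ± 0.26 in PY (adjusted p = 2.78e-05) and 1.06 ± 0.30 in WT (adjusted p = 0.0277), an interaction of -2.85 ± 0.40 (adjusted p = 3.11e-05). The WT call of atf3 was lost without WT SLC45a2-KO library 1 or 3 or WT TGR5-KO library 1 or 2 (adjusted p up to 0.093).

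The gene fosb was at 60.3, 70.1, 69.4, 110.2 and 80.5 CPM in PY SLC45a2-KO and 22.4, 39.7, 38.9, 47.6 and 28.9 CPM in PY TGR5-KO. In WT it was 21.9, 17.5, 18.5 and 15.1 CPM with SLC45a2-KO and 33.9, 33.7, 19.8 and 25.7 CPM with TGR5-KO. The PY groups were apart, the WT groups overlapped, and the interaction was -1.77 ± 0.29 (adjusted p = 5.7e-05). The gene jund, of the same family of AP-1 factors, had an interaction of -0.96 ± 0.22 (adjusted p = 0.00273).

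Transcripts known to respond to cyclic AMP and CREB, the pathway below TGR5, included more called falls than called rises in both backgrounds. Of 29 tested, 5 had a negative interaction and 1 a positive one (median -0.09, against 0.04 over all tested genes). In PY 10 fell and 2 rose (median -0.37), and in WT 5 fell and 2 rose (median -0.15). Their summed level was 6275 to 8199 CPM in PY SLC45a2-KO and 3780 to 5050 CPM in PY TGR5-KO, and 2893 to 3123 CPM in WT SLC45a2-KO and 2109 to 2356 CPM in WT TGR5-KO, without overlap in either background. The low PY sum was shared with PY CYP7a1-KO, at 3828 to 5183 CPM, while WT CYP7a1-KO stood above both other WT groups, at 3332 to 3869 CPM. With the changed WT control 10 had a negative interaction and 1 a positive one. The list shares atf3 and fosb with the immediate early genes. The gene crema, an orthologue of CREM, which binds cyclic AMP response elements, was at 212.6, 277.6, 298.8, 313.003 and 210.3 CPM in PY SLC45a2-KO and 107.2, 107.5, 173.9, 167.2 and 99.7 CPM in PY TGR5-KO. Its WT level was 60.2, 61.8, 49.8 and 48.8 CPM with SLC45a2-KO and 84.8, 59, 70.7 and 67.3 CPM with TGR5-KO. The PY groups were apart, WT TGR5-KO overlapped its control, and the interaction was -1.36 ± 0.22 (adjusted p = 3.64e-05).

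**Figure D3:**
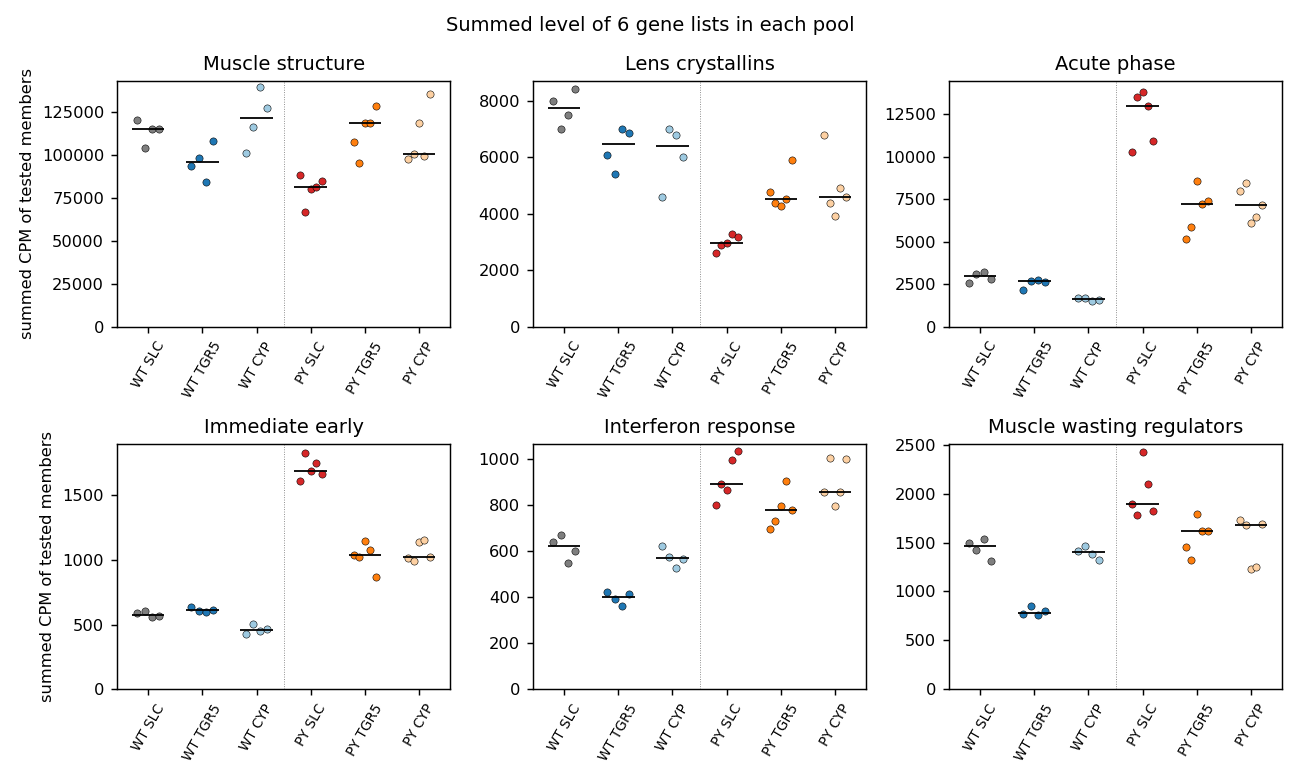
Each point is the summed level of the tested members of 1 gene list in 1 pool, in CPM scaled by TMM factors, with group medians as bars and WT and PY parted by a dotted line. Muscle and lens sums are higher and acute phase and immediate early sums lower in PY TGR5-KO than in PY SLC45a2-KO without overlap. The PY CYP7a1-KO sums of these lists part from PY SLC45a2-KO in the same directions, and the muscle wasting regulators are lowest in WT TGR5-KO.

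Liver genes were called in both directions. Of 49 tested hepatocyte markers, 6 had a positive and 4 a negative interaction (median -0.26). The positive count fell to 2 or 3 without PY SLC45a2-KO library 1, 2, 4 or 5, PY TGR5-KO library 3 or 5, WT SLC45a2-KO library 2, 3 or 4 or WT TGR5-KO library 1, 2 or 4, and the negative count to 2 without WT TGR5-KO library 3. With the changed WT control 4 were positive and 19 negative. The summed markers were at 14676 to 16674 CPM in WT CYP7a1-KO, below WT SLC45a2-KO at 23747 to 30800 CPM. The gene prox1a, for a homeodomain factor of liver and lymphatic development, was at 58.2, 83.6, 92, 103.9 and 72.5 CPM in PY SLC45a2-KO and 35.7, 33.2, 40.9, 43.4 and 32.7 CPM in PY TGR5-KO. The WT level was 20.6, 26.1, 20 and 21.9 CPM with SLC45a2-KO and 35.9, 42.4, 41 and 36.8 CPM with TGR5-KO. With TGR5-KO it fell in PY by 1.14 ± 0.16 on the log2 scale (adjusted p = 1.31e-06) and rose in WT by 0.82 ± 0.18 (adjusted p = 0.00275). The 2 TGR5-KO groups met at about the same level, 37.2 ± 4.75 CPM (SD, n = 5) in PY and 39 ± 3.17 (n = 4) in WT, and the interaction was -1.96 ± 0.24 (adjusted p = 3.73e-07). The CYP7a1-KO groups overlapped too, at 28.6 to 53.4 CPM in PY and 29.7 to 35.7 CPM in WT.

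The apolipoprotein B gene apoba, which builds the lipoproteins that leave the liver, was at 340.6, 451.7, 449.04, 384.002 and 411.4 CPM in PY SLC45a2-KO and 308.2, 307.1, 236.8, 302.4 and 254.7 CPM in PY TGR5-KO. In WT it was 64, 62.1, 78.4 and 94.9 CPM with SLC45a2-KO and 108.9, 105.9, 176.6 and 168.8 CPM with TGR5-KO. Both backgrounds showed groups without overlap, lower in PY by -0.53 ± 0.15 (adjusted p = 0.0111) and higher in WT by 0.90 ± 0.17 (adjusted p = 0.000242), an interaction of -1.44 ± 0.22 (adjusted p = 1.96e-05). The mitochondrial ATP-Mg carrier gene slc25a25a likewise fell in PY and rose in WT (interaction -1.91 ± 0.28, adjusted p = 2.25e-05). The copper transporter gene atp7a had an interaction of -2.45 ± 0.39 (adjusted p = 3.35e-05), at 13.1 to 21.9 CPM in PY SLC45a2-KO, 4.21 to 10.8 CPM in PY TGR5-KO, 3.13 to 5.78 CPM in WT SLC45a2-KO and 7.84 to 9.58 CPM in WT TGR5-KO. The groups of atp7a were apart in both backgrounds, and its WT call was lost without WT SLC45a2-KO library 1 or 3 or WT TGR5-KO library 3 (adjusted p up to 0.0632).

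The gene igfbp1a, for a secreted binding protein that holds insulin-like growth factors and rises in fasting and wasting, fell in both backgrounds. It was at 1968, 2043, 2183, 1988 and 1549 CPM in PY SLC45a2-KO and 487.8, 544.9, 732.5, 634.8 and 442.1 CPM in PY TGR5-KO. Its WT level was 98.2, 109.99, 98 and 91.3 CPM with SLC45a2-KO and 59.8, 65.5, 58.7 and 59 CPM with TGR5-KO. The groups were apart in both, with a fall of 1.78 ± 0.13 on the log2 scale in PY (adjusted p = 4.09e-14) and of 0.71 ± 0.15 in WT (adjusted p = 0.00128), so the interaction of -1.07 ± 0.20 (adjusted p = 0.000248) marks a larger fall in PY. It was the 1 gene with a negative interaction that was called lower in both backgrounds. The CYP7a1-KO pools were also below the controls for igfbp1a, at 356.4 to 619.6 CPM in PY and 63.3 to 78.3 CPM in WT.

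Glucokinase, which phosphorylates glucose in the fed liver, responded in WT. The gene gck was at 5.15, 6.42, 9.38 and 12.5 CPM in WT SLC45a2-KO and 95.7, 133.99, 108.2 and 66.4 CPM in WT TGR5-KO. Its PY level was 12.5, 22.8, 7.46, 14.6 and 21.8 CPM with SLC45a2-KO and 9.82, 15.4, 24.7, 27.1 and 32.3 CPM with TGR5-KO. The WT groups were apart and the PY groups overlapped, with changes of 3.58 ± 0.42 (adjusted p = 7.24e-06) and 0.45 ± 0.36 (adjusted p = 0.492) and an interaction of -3.14 ± 0.54 (adjusted p = 0.000689). Of 26 genes of liver glucose metabolism, gck and igfbp1a had the 2 negative interactions and pfkfb4b the 1 positive one (11.5% called, against 6.71% over all tested genes). The cytochrome P450 gene cyp2k18 fell in WT from 35.6, 37.4, 59.8 and 48.2 CPM to 3.91, 12.9, 16.1 and 8.93 CPM and had a positive interaction of 2.72 ± 0.39 (adjusted p = 1.94e-05). The PY level was 15.2 to 25.2 CPM and 23.5 to 35.2 CPM, overlapping between groups.

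Of 12 tested genes for bile acid synthesis 1 had an interaction, cyp7a1 (8.33%, against 6.71% over all tested genes), and of 18 for bile acid transport, reception and feedback 5 had one (27.8%). The level of cyp7a1 was 4.03, 3.64, 0.625 and 1.32 CPM in WT SLC45a2-KO and 27.4, 20.5, 37.3 and 34.9 CPM in WT TGR5-KO. In PY it was 12.7, 10.9, 7.21, 5.25 and 6.78 CPM with SLC45a2-KO and 13.5, 16.9, 8.58, 8.41 and 17 CPM with TGR5-KO. The WT groups were far apart and the PY groups overlapped, with changes of 3.65 ± 0.36 (adjusted p = 3.67e-09) and 0.58 ± 0.29 (adjusted p = 0.198) and an interaction of -3.07 ± 0.46 (adjusted p = 2.25e-05). The level was also high in WT CYP7a1-KO, at 33.4 to 55.7 CPM, so the WT control stood apart from both other WT groups. With the changed WT control the interaction of cyp7a1 was -0.96 (adjusted p = 0.13).

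Of the 18 genes of transport, reception and feedback, 4 had a negative and 1 a positive interaction (median 0.21), the negative ones being slc51a, nr5a2, abcb11b and abcc2. The export transporter subunit gene slc51a was at 271.01, 286.6, 300.3, 170.5 and 293.1 CPM in PY SLC45a2-KO and 224.3, 222.4, 189.6, 180.1 and 137.03 CPM in PY TGR5-KO, and at 28.1 to 32.3 CPM and 42 to 68.3 CPM in the 2 WT groups. The PY groups overlapped through PY SLC45a2-KO library 4, the WT groups did not, and the interaction was -1.27 ± 0.25 (adjusted p = 0.000544). The PY change of slc51a, -0.47 ± 0.16 (adjusted p = 0.0434), was not called without PY SLC45a2-KO library 1, 2, 3 or 5 or PY TGR5-KO library 3, 4 or 5, and the WT change, 0.80 ± 0.19, not without WT TGR5-KO library 3 (adjusted p = 0.051). The nuclear receptor gene nr5a2, an activator of cyp7a1 in mammals, fell in PY from 43, 59.2, 71.6, 81.2 and 61.7 CPM to 27.3, 32.5, 32.1, 35.5 and 37.6 CPM, without overlap (interaction -1.27 ± 0.26, adjusted p = 0.00086). The bile salt export pump gene abcb11b had an interaction of -1.57 ± 0.39 (adjusted p = 0.0125), with 121.5 to 314.7 CPM in PY SLC45a2-KO and 82.5 to 158.03 CPM in PY TGR5-KO. The nuclear receptor gene nr0b2a, known in mammals as SHP, which represses Cyp7a1 in bile acid feedback, had the positive interaction and was chosen after its values were seen. It was at 37.1, 29.3, 66.3 and 40.1 CPM in WT SLC45a2-KO and 11.5, 9.46, 4.89 and 2.83 CPM in WT TGR5-KO, and at 19.3 to 36.5 CPM and 16.7 to 46.8 CPM in the PY groups. Its interaction of 2.57 ± 0.64 (adjusted p = 0.0159) became 1.13 (adjusted p = 0.302) with the changed WT control.

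Regulators of muscle wasting included genes that fell with TGR5-KO in WT. Of 34 tested ubiquitin ligases and regulators of muscle wasting, 5 had a positive and 1 a negative interaction. In WT 10 fell and 0 rose, and in PY 7 fell and 0 rose, a count of 4 without PY SLC45a2-KO library 3 or 4 or PY TGR5-KO library 1 or 2. Their summed level was 756.3 to 849.4 CPM in WT TGR5-KO and 1313 to 1539 CPM in WT SLC45a2-KO. The gene foxo1a, for a transcription factor that insulin signalling holds out of the nucleus, was at 86.6, 82.4, 81.1 and 90.1 CPM in WT SLC45a2-KO and 32.2, 28.6, 27.9 and 32.5 CPM in WT TGR5-KO. Its PY level was 118.5, 140.4, 148.5, 172.4 and 150.1 CPM with SLC45a2-KO and 96.5, 114.7, 139.6, 128.8 and 144.6 CPM with TGR5-KO. The WT groups were apart and the PY groups overlapped, and the interaction was 1.26 ± 0.22 (adjusted p = 8.75e-05).

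The translation repressor gene eif4ebp3l fell in both backgrounds, by 2.10 ± 0.23 on the log2 scale in WT (adjusted p = 1.51e-08) and by 0.69 ± 0.19 in PY (adjusted p = 0.012), an interaction of 1.41 ± 0.29 (adjusted p = 0.00135). The polyubiquitin gene ubb fell in WT from 192.2, 178.3, 230.9 and 131.7 CPM to 73.5, 82.6, 67.4 and 81.5 CPM, while the PY groups overlapped at 246.98 to 335.9 CPM and 265.8 to 396.8 CPM (interaction 1.25 ± 0.21, adjusted p = 5.84e-05). The cell cycle inhibitor gene cdkn1d was at 97.5, 87.7, 84.6 and 77.3 CPM in WT SLC45a2-KO and 37.8, 25.4, 21.2 and 22 CPM in WT TGR5-KO. The PY level was 70.6 to 92.5 CPM and 74.7 to 91.9 CPM, which overlapped. The change of cdkn1d was -1.71 ± 0.16 in WT (adjusted p = 1.52e-10) and 0.01 ± 0.14 in PY, an interaction of 1.72 ± 0.21 (adjusted p = 3.73e-07).

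The zinc finger repressor gene zbtb16b, known in mammals as a glucocorticoid-induced gene, fell in WT from 21.9, 27.2, 26.1 and 24.9 CPM to 10.2, 6.92, 6.11 and 6.32 CPM. In PY it was 20.1, 12.7, 11.2, 19.9 and 10.6 CPM with SLC45a2-KO and 20.3, 19.9, 25, 25.2 and 30.6 CPM with TGR5-KO. The interaction was 2.46 ± 0.33 (adjusted p = 1.08e-06), and its PY change of 0.70 ± 0.21 (adjusted p = 0.0217) was not called without PY SLC45a2-KO library 2, 3 or 5 or PY TGR5-KO library 5. Of 35 genes of fatty acid oxidation and ketone synthesis, 7 had a positive interaction and 0 a negative one. That count was 4 without PY SLC45a2-KO library 4, PY TGR5-KO library 1 or 5, WT SLC45a2-KO library 2 or 3 or WT TGR5-KO library 4. In PY 7 of the 35 rose and 1 fell (median 0.39), and in WT 1 rose and 2 fell (median -0.07). Only 4 rose in PY without PY SLC45a2-KO library 2 or 4 or PY TGR5-KO library 1. The gene cpt1b, for the enzyme that admits fatty acids to muscle mitochondria, fell in WT from 28.9, 43, 37.9 and 43.1 CPM to 7.83, 13.8, 7.54 and 9.37 CPM (interaction 2.42 ± 0.41, adjusted p = 0.000124). The mitochondrial carrier gene ucp2 fell in WT from 148.9 to 171.97 CPM to 80.7 to 108.4 CPM (interaction 1.00 ± 0.21, adjusted p = 0.00119), and for both genes the PY groups overlapped. Of 14 genes of thyroid hormone handling and thermogenesis, processes that TGR5 is known to promote in brown fat of mammals, 3 had a positive interaction and 0 a negative one, and 3 fell in WT.

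Of 35 circadian clock genes, 4 had a positive and 2 a negative interaction, and 9 fell in WT. The gene nfil3-2 fell in WT from 119.7, 98.4, 113.4 and 112.1 CPM to 45.7, 33.7, 38.7 and 41.8 CPM, and the cryptochrome gene cry1aa from 98.7, 83, 79.6 and 90.9 CPM to 42.8, 45.9, 49.3 and 47.5 CPM. Both lost their interaction call with the changed WT control (0.55, adjusted p = 0.0707, and 0.54, adjusted p = 0.111). WT CYP7a1-KO stood at 39.1 to 50.3 CPM for nfil3-2 and 38.2 to 56.2 CPM for cry1aa. The cryptochrome gene cry1ab, at 1.74 to 3.26 CPM in WT TGR5-KO, 5.59 to 12.2 CPM in WT SLC45a2-KO and 7.02 to 11.4 CPM in WT CYP7a1-KO, had an interaction of 2.24 ± 0.47 (adjusted p = 0.00109). The labels give no hour of collection.

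Interferon response genes had the largest median interaction of the lists, 1.68, with 14 positive and 1 negative among 29 tested. The change lay in WT, where 16 fell and 0 rose (median -1.46), against 2 that fell and 0 that rose in PY (median 0.01). The helicase gene znfx1, for a sensor of viral RNA, was at 62.9, 66.3, 50.2 and 61.8 CPM in WT SLC45a2-KO and 6.09, 5.54, 7.74 and 9.15 CPM in WT TGR5-KO. Its PY level was 18.5, 29.1, 23.1, 36.5 and 29.9 CPM with SLC45a2-KO and 23.9, 21.9, 14.9, 29.5 and 10.4 CPM with TGR5-KO. WT SLC45a2-KO stood above every other pool, including WT CYP7a1-KO at 8.52 to 14.4 CPM, and the interaction was 2.63 ± 0.33 (adjusted p = 3.73e-07). The ubiquitin ligase gene rnf213a was at 52.7 to 70.2 CPM in WT SLC45a2-KO, above the other WT groups at 11.5 to 17.2 CPM in WT TGR5-KO and 11.8 to 20 CPM in WT CYP7a1-KO. The PY level of rnf213a was 31.9 to 59.7 CPM with SLC45a2-KO, which reached into the range of WT SLC45a2-KO, and 31.2 to 45.4 CPM with TGR5-KO (interaction 1.96 ± 0.26, adjusted p = 1.03e-06). The kinase gene pkz, which fish use to sense foreign nucleic acid, had an interaction of 2.91 ± 0.48 (adjusted p = 5.33e-05). It was at 12.7 to 21.3 CPM in WT SLC45a2-KO, 1.38 to 3.04 CPM in WT TGR5-KO and 1.97 to 5.13 CPM in WT CYP7a1-KO. The coactivator gene helz2 had an interaction of 4.41 ± 0.83 (adjusted p = 0.000359) on levels of 0 to 1.52 CPM in WT TGR5-KO against 10.2 to 21.5 CPM in WT SLC45a2-KO. The WT control alone was high, with helz2 at 0.46 to 1.64 CPM in WT CYP7a1-KO. In PY it was at 0 to 2.97 CPM with SLC45a2-KO, 0.97 to 1.92 CPM with TGR5-KO and 0.214 to 1.06 CPM with CYP7a1-KO. The signal transducer gene stat1b had an interaction of 4.08 ± 0.83 (adjusted p = 0.00096), which became 2.38 (adjusted p = 0.0653) with the changed WT control. With that control 6 interferon genes had a positive interaction and the median was 1.04, against 14 and 1.68 with WT SLC45a2-KO alone. Unlike the genes named, the summed list was at 527.7 to 622.6 CPM in WT CYP7a1-KO, overlapping WT SLC45a2-KO at 550.2 to 669.6 CPM. WT TGR5-KO lay below both sums, at 364.1 to 424.1 CPM.

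**Figure D4:**
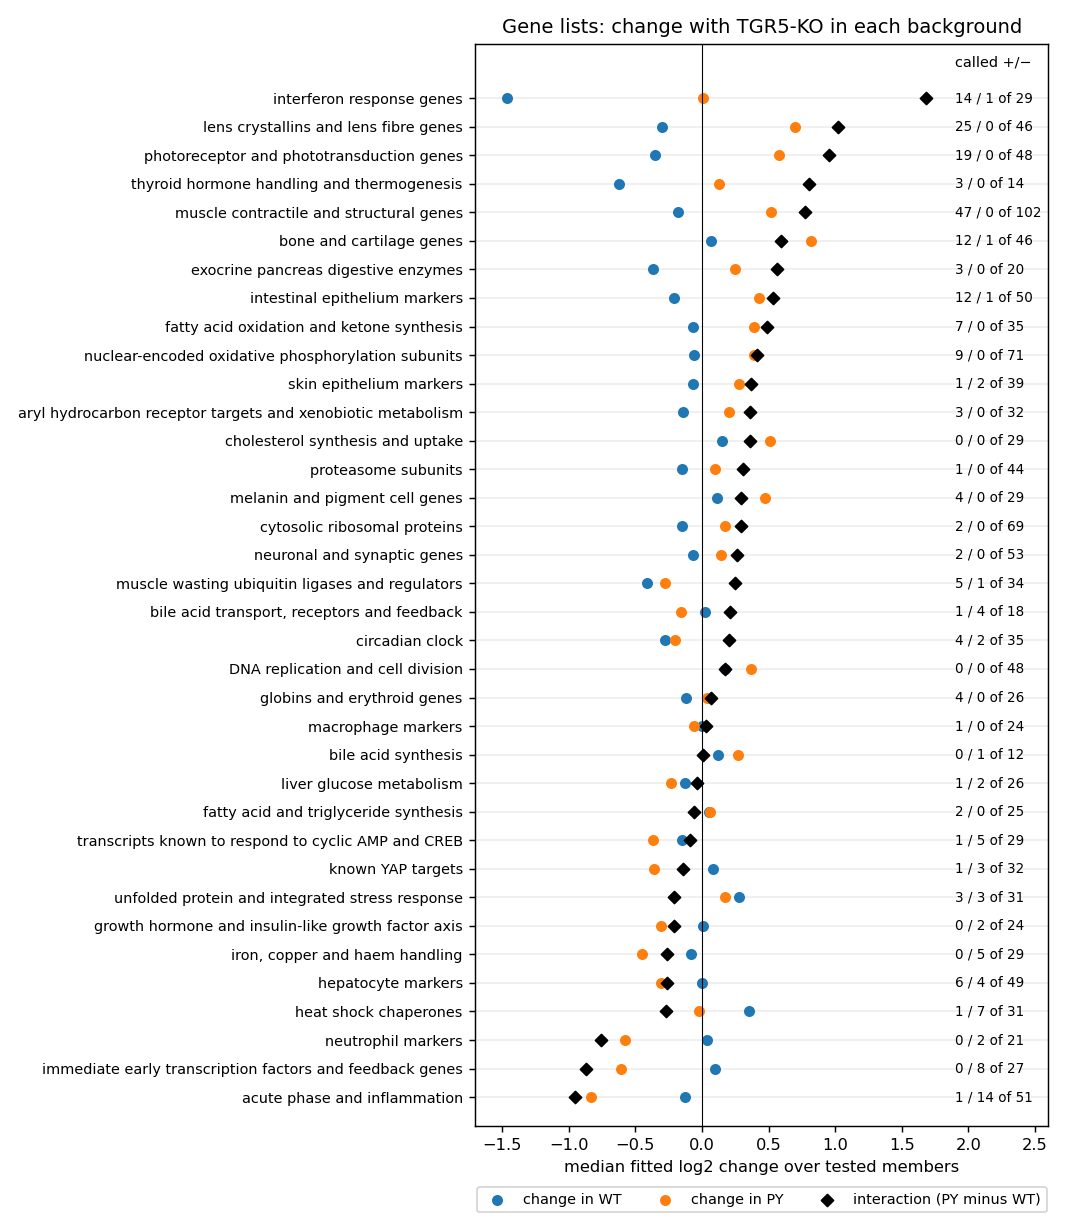
For each gene list, the circles are the median fitted log2 change with TGR5-KO over its tested members in WT (blue) and PY (orange), and the diamond is the median interaction; the numbers at the right count members with a called positive and negative interaction. Interferon genes stand at 1.68 through their fall in WT, muscle, lens and photoreceptor genes at 0.77 to 1.02 mostly through a rise in PY, and acute phase genes at -0.95 through a fall in PY.

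Heat shock chaperones had 7 negative interactions and 1 positive among 31 (median -0.27). In WT 5 rose and 1 fell, and in PY 3 rose and 3 fell. The collagen chaperone gene serpinh1b rose in WT from 9.62, 9.2, 5.42 and 7.75 CPM to 52.2, 36, 43 and 37.7 CPM. It was at 6.08 to 16.2 CPM and 7.28 to 22.8 CPM in the PY groups, which overlapped (interaction -2.06 ± 0.49, adjusted p = 0.00738). The co-chaperone gene dnajb1a rose in WT from 2.92 to 6.21 CPM to 15.2 to 17.7 CPM (interaction -1.96 ± 0.37, adjusted p = 0.000344). The gene hsp70.3, of a family of near-identical copies, had an interaction of -4.05 ± 1.16 (adjusted p = 0.0365) on 0.567 to 2.92 CPM in WT SLC45a2-KO, 2.39 to 9.78 in WT TGR5-KO, 2.97 to 33.4 in PY SLC45a2-KO and 0.243 to 9.03 in PY TGR5-KO. This call was lost without WT SLC45a2-KO library 1, 2 or 4, WT TGR5-KO library 3 or 4, PY SLC45a2-KO library 2 or PY TGR5-KO library 1, 3, 4 or 5.

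Among the genes called in opposite directions in the 2 backgrounds were 2 that handle vitamin A, which reaches the body with dietary fat. The gene cyp26a1, for the enzyme that degrades retinoic acid and is induced by it, was at 3.23, 3.28, 2.49, 3.04 and 2.54 CPM in PY SLC45a2-KO and 29.7, 13.5, 7.57, 8.94 and 6.55 CPM in PY TGR5-KO. The WT level was 37.8, 33.4, 45.4 and 32.1 CPM with SLC45a2-KO and 13.9, 9.23, 8.96 and 9.8 CPM with TGR5-KO. The groups were apart in both backgrounds, with changes of 2.19 ± 0.35 in PY (adjusted p = 3.69e-05) and -1.82 ± 0.34 in WT (adjusted p = 0.000358) and an interaction of 4.01 ± 0.49 (adjusted p = 8.78e-07). The gene lratb.2, for an enzyme that stores retinol as its ester, rose in PY from 3.23, 2.26, 2.49, 3.87 and 2.33 CPM to 10.3, 11.1, 5.55, 5 and 10.7 CPM. It fell in WT from 19.2, 27, 31.3 and 19.5 CPM to 12.4, 6.69, 12 and 8.93 CPM (interaction 2.87 ± 0.40, adjusted p = 3.49e-06). The carbonyl reductase-like gene cbr1l followed the same course, 13.2, 13.9, 11.7, 15.7 and 18.7 CPM to 26.7, 20.3, 23.2, 26.3 and 22.1 CPM in PY and 44.7, 49.9, 55.4 and 41.8 CPM to 15.4, 18.9, 18.1 and 11.8 CPM in WT. It had the smallest p of all named genes (interaction 2.27 ± 0.27, adjusted p = 3.23e-07). WT CYP7a1-KO, at 12.7 to 18.5 CPM for cbr1l and 5.52 to 11.3 CPM for lratb.2, overlapped WT TGR5-KO and lay below all WT SLC45a2-KO pools. The glutathione transferase gene gstp2 rose in PY by 2.03 ± 0.36 (interaction 2.77 ± 0.51, adjusted p = 0.000217). The genes cyp26a1, lratb.2 and cbr1l were named for their called changes in opposite directions, and no list of vitamin A genes was counted.

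Some of the largest fitted interactions belonged to genes at or near 0 in 1 group. The embryonic globin gene hbbe2, of a family of near-identical copies, had 4141 counts in WT SLC45a2-KO (204.7, 249.3, 275.1 and 140.03 CPM) and 0 in all 4 WT TGR5-KO pools, at least 1227-fold lower with the same floor. It was also at 0 in all 4 WT CYP7a1-KO pools, and in PY it was at 280.7 to 786.1 CPM with SLC45a2-KO and 230.9 to 460.4 CPM with TGR5-KO. The changed WT control could not test the interaction of hbbe2, because WT TGR5-KO and WT CYP7a1-KO both had 0 counts. The intelectin-like gene itln1l, for a lectin of mucosal surfaces, was at 6.04, 11.1, 11.9 and 7.37 CPM in WT SLC45a2-KO and 0.217, 0, 0 and 0 CPM in WT TGR5-KO, with 4.72 to 24.2 CPM in all 10 PY pools (interaction 6.97 ± 1.20, adjusted p = 0.000544). In the other direction vat1, a vesicle membrane protein gene, had 0 counts in WT SLC45a2-KO and 0, 3.23, 0.815 and 1.96 CPM in WT TGR5-KO (27 counts, at least 10.1-fold higher against the floor). The PY level was 11.6 to 20.4 CPM with SLC45a2-KO and 12.4 to 20 CPM with TGR5-KO, and its call was lost in a fit with a spread per group (adjusted p = 0.0749). The myeloid and hepatocyte factor gene cebpa rose in WT from 30.8 to 35.8 CPM to 59 to 103.7 CPM, while the PY groups overlapped at 37 to 69.1 CPM and 27.2 to 71.1 CPM (interaction -1.47 ± 0.37, adjusted p = 0.0125).

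The 9 CYP7a1-KO libraries allowed a test of whether an interaction differed between the knockouts, as (PY TGR5-KO minus PY CYP7a1-KO) minus (WT TGR5-KO minus WT CYP7a1-KO), in which the SLC45a2-KO pools cancel. This difference was called for 2194 genes (14.1%), 931 higher (6%) and 1263 lower (8.14%). The difference was 2.54 ± 0.22 for cdkn1d (adjusted p = 8.03e-12), 2.38 ± 0.22 for foxo1a (adjusted p = 6.14e-11), 2.47 ± 0.32 for zbtb16b (adjusted p = 6.21e-07) and -3.62 ± 0.52 for gck (adjusted p = 5.85e-05). In WT CYP7a1-KO these genes stood at 95.9 to 107.7 CPM for cdkn1d, 111.3 to 139.9 for foxo1a, 20.3 to 33.5 for zbtb16b and 8.35 to 27.6 for gck. In PY CYP7a1-KO they stood at 48.1 to 72.1, 79.3 to 133.6, 11.8 to 23.3 and 25.5 to 54.5 CPM, in the same order. Of these, cdkn1d alone did not overlap PY TGR5-KO, at 74.7 to 91.9 CPM. The difference was also called for fosb (-2.72 ± 0.32, adjusted p = 5.21e-08), apoba (-1.81 ± 0.23, adjusted p = 2.28e-07) and atf3 (-2.43 ± 0.42, adjusted p = 0.000206). PY CYP7a1-KO overlapped PY TGR5-KO in all of these, at 25.7 to 59.4 CPM for fosb, 215.6 to 321.4 for apoba and 21.5 to 35.4 for atf3. WT CYP7a1-KO stood below WT TGR5-KO, at 4.6 to 5.82 CPM for fosb, 27 to 48.7 for apoba and 5.57 to 9.44 for atf3. For 3 of the genes that rose in PY the difference did not pass, at 0.26 ± 0.19 for tpm1 (adjusted p = 0.399), 0.03 ± 0.26 for meltf (adjusted p = 0.956) and -0.02 ± 0.24 for col11a2 (adjusted p = 0.974). Differences well above the SE could go uncalled too, as for tpm2 (0.42 ± 0.17, adjusted p = 0.0982). Among 102 muscle genes it was called for 20 upward and 4 downward, among 46 lens genes for 2 and 0, among 46 bone and cartilage genes for 1 and 2, and among 29 interferon genes for 1 and 2. The summed muscle genes overlapped between the knockouts in PY and in WT. Their WT sum was 84721 to 108604 CPM with TGR5-KO and 101498 to 139713 with CYP7a1-KO. Among 51 acute phase genes the difference was called for 1 upward and 16 downward, among 31 heat shock chaperones for 0 and 14, and among 49 hepatocyte markers for 4 and 22. The upward hepatocyte count was 2 without PY TGR5-KO library 3. The summed levels of these lists overlapped between the knockouts in PY, with acute phase genes at 6122 to 8454 CPM in CYP7a1-KO and 5137 to 8577 in TGR5-KO. In WT the sums were lower with CYP7a1-KO than with TGR5-KO, without overlap. They were 1491 to 1711 against 2136 to 2764 CPM for acute phase genes and 2578 to 2706 against 4056 to 4419 CPM for chaperones. For cyp7a1 (0.65 ± 0.40, adjusted p = 0.295), znfx1 (0.44 ± 0.34, adjusted p = 0.433) and cyp26a1 (0.57 ± 0.48, adjusted p = 0.48) it did not pass, and for these 3 genes WT SLC45a2-KO did not overlap either other WT group. The same held for cbr1l (-0.11 ± 0.27, adjusted p = 0.834) and lratb.2 (-0.35 ± 0.38, adjusted p = 0.599). Nor did the difference pass for neb (1.41 ± 0.64, adjusted p = 0.152) or crygm2d1 (0.93 ± 0.78, adjusted p = 0.484), which were at or near 0 in PY SLC45a2-KO alone. It also did not pass for prox1a (-0.27 ± 0.24, adjusted p = 0.509), igfbp1a (0.26 ± 0.20, adjusted p = 0.406) or tnfaip3 (0.18 ± 0.33, adjusted p = 0.779).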

How the data were processed

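Pools of whole zebrafish larvae were profiled by 3′ end sequencing of polyadenylated RNA, with QuantSeq libraries per the labels' protocols. The authors deposited 1 table with raw counts per gene and CPM for 27 libraries and 39988 entries; the deposited CPM equalled count over library total within 0.0005. The submitters' processing notes name danRer 10 and GRCz 11 without a role, so no coordinates or sequences are given; which aligner, counter and strand setting were used, and whether reads carried molecular identifiers, is not given in the sources used here, so near-identical gene copies and antisense partners may share reads. An engineered allele of the PY background is not reported here.

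Counts were tested with edgeR 4.0.16 (R 4.3.3; TMM factors, filterByExpr, robust quasi-likelihood fit with 1 mean per group over all 27 libraries, Benjamini-Hochberg over 15521 genes). SE is the log2 change over the root of F. The targeted genes were below the filter and were compared by exact permutation within backgrounds. Groups followed sample titles and genotypes. The scripts were tested on simulated data. Named genes were gpbar1, slc45a2, cyp7a1 and yap1, the 8 genes of smallest p per direction with a mean of at least 5 CPM, the 4 largest called changes per direction, up to 6 genes called in opposite directions, and up to 3 per list. Only part of the genes picked per list are named in the text. Members and lists were chosen with earlier results of these data known. Alternatives were DESeq2 1.42.0, limma 3.58.1 voom with a spread per group, other scaling, filters, thinning, only the compared groups, no robust estimation, a replicate block, leaving out each library and, added after seeing the data, a changed WT control.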

Additional observations from a re-analysis of the deposited data

Results flagged for a closer look

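The change with TGR5-KO differed between PY and WT, by the test of the interaction itself, for 1041 genes. Among the genes named above, the positive differences (log2, PY minus WT) in muscle, eye and skeleton genes were 1.56 for tpm1, 1.36 for tpm2, 1.64 for klhl41b, 8.50 for neb, 1.49 for pde6h, 1.50 for pde6ha, 1.65 for rcvrn3, 2.12 for crygm2e, 1.16 for crybb1l2, 1.20 for crybb1l1, 9.36 for crygm2d1, 1.47 for col11a2 and 1.82 for col9a3. In gut, pancreas, pigment and mitochondrial genes they were 2.16 for meltf, 1.45 for chia.2, 1.86 for anpepb, 0.90 for cel.1, 1.38 for tyrp1a, 1.08 for tyrp1b and 0.89 for atp5mc3b. In metabolic, clock and stress genes they were 2.57 for nr0b2a, 2.72 for cyp2k18, 4.01 for cyp26a1, 2.87 for lratb.2, 2.27 for cbr1l, 2.77 for gstp2, 1.72 for cdkn1d, 2.46 for zbtb16b, 1.26 for foxo1a, 1.25 for ubb, 1.41 for eif4ebp3l, 2.42 for cpt1b, 1.00 for ucp2, 1.21 for nfil3-2, 2.24 for cry1ab and 1.01 for cry1aa. In interferon genes and genes at or near 0 in a group they were 2.63 for znfx1, 1.96 for rnf213a, 2.91 for pkz, 4.41 for helz2, 4.08 for stat1b, 6.97 for itln1l and 12.18 for hbbe2. The fitted values of neb, crygm2d1, itln1l and hbbe2 rest on a group with 0 or 1 counts, so their size is not well measured.

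The negative differences in inflammatory and immediate early genes were -1.76 for cebpb, -1.22 for c3a.3, -1.90 for tnfaip3, -1.69 for lsp1, -2.85 for atf3, -1.36 for crema, -1.77 for fosb and -0.96 for jund. In liver and bile acid genes they were -3.07 for cyp7a1, -1.27 for slc51a, -1.27 for nr5a2, -1.57 for abcb11b, -1.96 for prox1a, -1.44 for apoba, -1.07 for igfbp1a, -3.14 for gck and -1.47 for cebpa. The others were -1.36 for sox9b, -1.91 for slc25a25a, -2.45 for atp7a, -4.05 for hsp70.3, -1.96 for dnajb1a, -2.06 for serpinh1b and -5.78 for vat1. The value of vat1 rests on a group with 0 counts, so its size is not well measured.

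In 18 of 277 sets of 1 gene in 1 group, a single pool lay far from the others of its group, where chance gives about 1 in 20. Of these, 8 were pools of genes near 0. They were 0.189 CPM of slc45a2 in WT SLC45a2-KO library 4, 0.217 in WT TGR5-KO library 1 and 0.243 in PY TGR5-KO library 5, 0.625 of yap1 in WT SLC45a2-KO library 3 and 0.231 in WT TGR5-KO library 2, 0.249 of neb in PY SLC45a2-KO library 3, 0.217 of itln1l in WT TGR5-KO library 1 and 2.92 of hsp70.3 in WT SLC45a2-KO library 3. In PY the others were 8.01 CPM of yap1 in SLC45a2-KO library 4, 170.5 of slc51a in SLC45a2-KO library 4, 33.4 of hsp70.3 in SLC45a2-KO library 2 and 335.1 of tpm1 in TGR5-KO library 2. In WT SLC45a2-KO they were 265.8 CPM of col11a2 in library 1 and 20.2 of cebpb in library 4. In WT TGR5-KO they were 20 CPM of abcb11b and 13.9 of cyp26a1 in library 1, 65.5 of igfbp1a in library 2 and 401.4 of chia.2 in library 3.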

How the results depend on the processing

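The number of genes called in the interaction was 823 to 1055 when 1 library was left out and 972 to 1309 under the other alternatives, against 1041. The number called was 1316 to 1870 in PY, 690 to 820 in WT and 1748 to 2462 for the difference from CYP7a1-KO when 1 library was left out. A voom fit with a spread per group called 1684 genes in WT against 1008. Of the 67 named genes with a called interaction, 64 were called under every planned setting that kept all libraries. The exceptions were crygm2d1 and vat1 (voom) and hsp70.3 (voom, no filter, only the compared groups). Among these 67, leaving out 1 library ended the call of hsp70.3 alone. Most of them were picked by small p or large change in the same data, so lasting calls were likely from the start. Of all 1041 calls, 74.4 to 89% remained when 1 library was left out. Some list genes picked by rule but not named in the text lost their call more readily. For apoea 14 single libraries did so when left out, and for pnp5a 12. With the changed WT control 805 of the 1041 calls (77.3%) remained. The direction of the named interactions reversed under none of the alternatives run. Replicate numbers were not treated as pairs in the main fit. Deviations of the 25 same-numbered pairs correlated at -0.0619 to 0.107. The strongest correlation was with a library of the same number for 7 of the 18 libraries. The number that chance would give was not computed, so whether the numbers pair the samples is not settled. With a replicate block 992 genes were called in the interaction, 1689 in PY, 986 in WT and 2106 for the difference from CYP7a1-KO. The depth of these libraries limits genes of a few CPM, such as gpbar1.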
